A study of Mus musculus with 6 samples.

Results

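Imprinted genes are read mainly from 1 of the 2 parental copies, and many of them act on growth before birth. The members described here are 10 such genes that are highly active in the embryo or placenta and are mostly turned down in adult tissue, namely H19, Meg3, Cdkn1c, Grb10, Plagl1, Peg3, Dlk1, Mest, Peg10 and Ndn. They were chosen by name as imprinted growth genes, with earlier results of these data known, so the choice was not blind to the data. They are 10 of the 18460 genes with reads in at least 1 tumor. Igf2, the fetal growth factor gene next to H19, is given as a reference and is not counted as a member.

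Expression was measured by RNA sequencing in 6 breast tumors of Balb/c mice. All 6 mice carried PyMTtg, the polyoma middle T transgene that gives mammary tumors, and Rag1KO, which removes their own T and B cells, and CD4+ T cells had been injected into all of them at 4 wk. The 3 control tumors came from PyMTtg;Rag1KO mice. The 3 test tumors came from K14-TSLPtg;PyMTtg;Rag1KO mice, in which the keratin 14 promoter drives the cytokine TSLP in keratinocytes. Tumors were taken at an endpoint of 18 to 20 wk. The comparison asks how tumors that grew in mice with the TSLP transgene differed in these genes from tumors that grew without it.

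In mammals the maternal copy of H19, a long noncoding RNA, and the paternal copy of Igf2 share enhancers, and a methylated control region between the genes decides which of them those enhancers reach. Dlk1 and Meg3 form a similar pair of a paternally expressed protein gene and a maternally expressed noncoding RNA. Cdkn1c, Grb10 and H19 restrain fetal growth, while Igf2, Mest and Peg3 are read from the paternal copy. The deposited values do not separate the parental copies, so they give the level of each gene and not its imprint.

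H19 and Mest, the members with the lowest p-values below, each carry a microRNA inside their gene span. The mature sequences are shown because they are a known product of these host genes, although the microRNAs themselves were not measured in these libraries. Capitals mark the seed, bases 2 to 8. All 4 seeds differ. The positions and sequences are from RefSeq on GRCm38.p6, with miR-675 on the minus strand and miR-335 on the plus strand.
mmu-miR-675-5p (H19, chr7:142577112-142577133): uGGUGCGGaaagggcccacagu
mmu-miR-675-3p (H19, chr7:142577078-142577099): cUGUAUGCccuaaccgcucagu
mmu-miR-335-5p (Mest, chr6:30741314-30741336): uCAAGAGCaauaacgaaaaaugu
mmu-miR-335-3p (Mest, chr6:30741354-30741375): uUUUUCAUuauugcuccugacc

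Promoter windows of 300 bases around a start of transcription were matched in RefSeq for 7 of the 10 members. Promoters of imprinted genes are often rich in CG, the letter pair at which DNA is methylated. The median over 32851 windows of all genes was 7 CG pairs. The most CG-rich windows of Grb10 and Mest are shown, with each CG in capitals. The Grb10 window shown, on the minus strand, held 45 CG pairs, a number that 1.93% of all windows reach, while the window at its other start (chr11:12027922-12028221) held 9, which 45.78% reach. The Mest window shown, on the plus strand, held 17, as did a window shifted by 3 bases, and 31.41% of all windows reach that number. The third Mest window (chr6:30733256-30733555) held 8, near the median, and 48.65% of all windows hold as many.
Grb10 (chr11:12037371-12037670): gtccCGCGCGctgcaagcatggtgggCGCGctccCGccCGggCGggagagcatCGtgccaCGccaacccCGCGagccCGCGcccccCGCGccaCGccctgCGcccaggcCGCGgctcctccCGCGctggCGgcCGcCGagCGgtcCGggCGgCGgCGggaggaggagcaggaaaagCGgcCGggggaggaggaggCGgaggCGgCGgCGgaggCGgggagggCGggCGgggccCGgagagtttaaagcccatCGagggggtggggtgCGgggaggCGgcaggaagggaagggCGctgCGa
Mest (chr6:30737800-30738099): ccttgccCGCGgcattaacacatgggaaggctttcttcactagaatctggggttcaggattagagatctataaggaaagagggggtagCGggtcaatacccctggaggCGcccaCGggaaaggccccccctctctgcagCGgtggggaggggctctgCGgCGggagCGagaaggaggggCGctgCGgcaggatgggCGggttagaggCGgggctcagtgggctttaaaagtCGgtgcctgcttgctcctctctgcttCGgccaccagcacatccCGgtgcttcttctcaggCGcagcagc

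Plagl1, another member, encodes a zinc finger protein known to bind GGGGCCCC. This palindrome reads the same on both strands, and it was found in 1.08% of all 32851 windows. Among the members with a window it was found once, in the window of Peg3, on the minus strand, where capitals mark it. The match is a description of the letters and says nothing about binding in these tumors.
Peg3 (chr7:6730370-6730669): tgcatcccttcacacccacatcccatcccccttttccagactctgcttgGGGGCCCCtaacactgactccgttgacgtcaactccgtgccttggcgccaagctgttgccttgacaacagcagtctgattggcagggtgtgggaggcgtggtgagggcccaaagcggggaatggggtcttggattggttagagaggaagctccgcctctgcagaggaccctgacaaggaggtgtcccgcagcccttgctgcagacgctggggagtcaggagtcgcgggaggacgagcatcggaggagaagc

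The depth ran from 8373390 to 9449565 expected counts per tumor. Control replicate 2 stood apart from the other controls. Across genes, its log2 expression had a Pearson correlation of 0.874 and 0.908 with control replicates 1 and 3, against 0.921 to 0.935 with the 3 test tumors, where genes are not independent replicates. Results that rest on that tumor are given with and without it. Tslp itself had 2, 2 and 3 counts in control replicates 1 to 3 and 12, 7 and 2 counts in test replicates 1 to 3, so the tumor libraries give no check of the labels. Among markers that differ between cell types, 6 luminal epithelial genes were summed in CPM (counts scaled to TMM library sizes). The sums were 2160, 4081 and 1872 CPM in control replicates 1 to 3, so control replicate 2 was nearest the test tumors. In test replicates 1 to 3 they were 5322, 5355 and 5370 CPM. Of these 6 genes, 3 did not overlap between the groups (Krt8, Krt18 and Krt19, all higher in test tumors), and none had an adjusted p of at most 0.05 by edgeR. Their part in the results below was not tested. In bulk tumors, fewer cells of a type and less RNA per cell cannot be told apart.

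Of the 10 members, 8 passed edgeR's filter on low counts and were tested within all 13706 genes that passed, while Dlk1 and Ndn had too few counts. Of the 8, 5 were lower and 3 higher in test tumors, with a median log2 fold change of -0.99 against 0.02 over all genes tested. The median moved with single tumors, to -0.37 without control replicate 1, -0.60 without control replicate 3 and -1.23 without control replicate 2. None had an adjusted p of at most 0.05 in edgeR's quasi-likelihood test, and the same holds for all genes (0% called). At an unadjusted p under 0.05, 2 members passed, H19 and Mest, both lower in test tumors, where 8.41% of all genes tested passed in either direction and 5.26% passed as lower. Only H19 of the 10 members did not overlap between the groups, against 12% of all genes tested, and 5.86% that were lower in every test tumor. DESeq2, run as an alternative, called 1 member, H19, where it called 2.37% of the 14451 genes to which it gave an adjusted p. Its unadjusted p was under 0.05 for 4 members, H19, Mest, Grb10 and Cdkn1c, and for 8.61% of all genes.

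**Figure D1:**
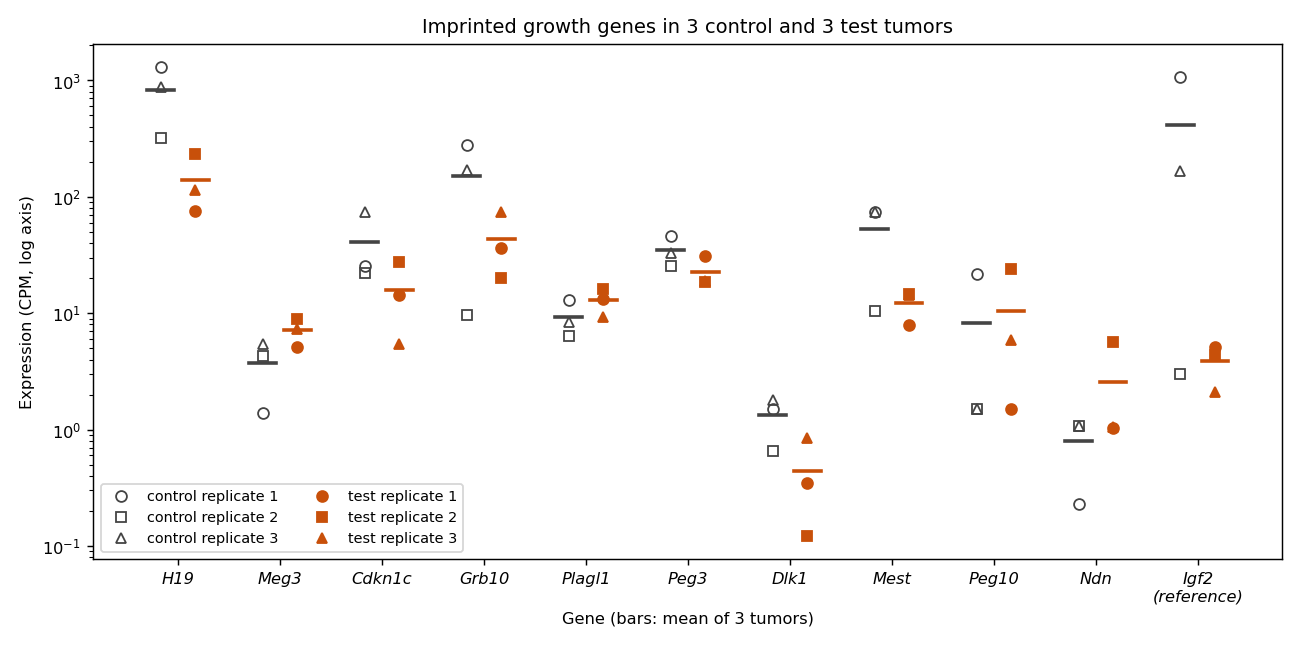
Expression of the 10 members and of Igf2 in CPM on a log axis, with 1 symbol per tumor (open grey for control, filled orange for test) and a bar at the mean of 3 tumors. The 3 test tumors lie at 75.5 to 232 CPM for H19, below all 3 control tumors, while the groups overlap for every other gene.

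H19 (NCBI Gene 14955) is a noncoding RNA on chromosome 7 of GRCm38, from 142575530 to 142578146. It was the most abundant member per length in all 6 tumors. Its level was 1295, 319 and 883 CPM in control replicates 1 to 3 and 75.5, 232 and 114 CPM in test replicates 1 to 3. The lowest control tumor, replicate 2, lay above the highest test tumor, replicate 2, so the groups did not overlap. These levels rest on 2946 to 11188 counts in control tumors and 655 to 1903 counts in test tumors, so counting error is small beside the spread between tumors. Means were 832 ± 490 CPM in control and 141 ± 81.6 CPM in test tumors (SD, n = 3 each), 5.91-fold higher in control tumors. The log2 fold change was -2.56 with a standard error of 0.62 (adjusted p = 0.394 edgeR, Benjamini-Hochberg, the lowest adjusted p in the comparison, shared by 161 genes). By exact permutation, two-sided, p was 0.1, the smallest p that 3 tumors against 3 can give.

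The tool used decides the call for H19. DESeq2 gave the same size, -2.57, with an adjusted p = 0.00136. Without control replicate 2 the edgeR value was -2.95 with an adjusted p = 0.0534. Other tumors left out gave higher adjusted p-values by edgeR. These were 0.996 without control replicate 1, 0.916 without control replicate 3, and 0.569 to 0.629 without 1 of the test tumors. H19 stayed lower in test tumors under all 13 alternatives, with log2 fold changes from -3.12 to -2.10. The luminal markers above lay the other way between the groups, and the summed fibroblast markers ran from 892 to 2981 CPM in control tumors and from 824 to 4925 CPM in test tumors, overlapping widely. Skeletal muscle markers summed to 8.45, 222 and 7.03 CPM in control replicates 1 to 3. In test replicates 1 to 3 they summed to 1333, 191 and 122 CPM. Myod1 and Myf6 were at 3 counts or fewer in all 6 tumors. All 8 tested muscle markers were higher in test tumors, with a median log2 fold change of 2.96. The 2 tested adipocyte markers were higher too, at a median of 3.17, both with an unadjusted p under 0.05 by edgeR. Markers of 4 other kinds of cell were mostly lower in test tumors, as H19 was. All 5 macrophage markers were lower, with a median log2 fold change of -0.64 and sums of 259, 133 and 326 CPM in control replicates 1 to 3 and 129, 179 and 147 CPM in test replicates 1 to 3. Of 7 myoepithelial markers 6 were lower, with a median of -0.69 and sums of 792, 454 and 2935 CPM and of 1156, 669 and 520 CPM in the same order. Lower too were 5 of 7 endothelial and pericyte markers and 3 of the 4 tested nerve and Schwann cell markers, with sums of 197 to 393 CPM and 376 to 796 CPM over the 6 tumors. Control replicates 1 and 3 were the highest tumors in the macrophage sum and in the nerve and Schwann cell sum, as in H19. The nerve and Schwann cell sum was 714, 514 and 796 CPM in control replicates 1 to 3. In test replicates 1 to 3 it was 518, 376 and 580 CPM. The groups overlapped in each of these 4 sums. Of the markers in these 4 sums edgeR called none, with an unadjusted p under 0.05 for 1 macrophage, 1 myoepithelial and 1 nerve marker. The part of these cell types in the H19 difference was not tested.

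Igf2 (NCBI Gene 16002), the neighbour of H19, lies 72621 bases from it on chromosome 7, between 142650768 and 142666816. Its level was 1080, 3.03 and 168 CPM in control replicates 1 to 3 and 5.07, 4.39 and 2.12 CPM in test replicates 1 to 3. Control replicates 1 and 3 were high and control replicate 2 lay among the test tumors, so the groups overlapped, unlike those of H19. On the log2 scale Igf2 differed by -6.75 (standard error 1.77, adjusted p = 0.407, edgeR). This size leans on control replicate 1, without which it was -4.47. Per length, the ratio of H19 to Igf2 in FPKM (fragments scaled to gene length and depth) was 1.72, 155 and 7.56 in control replicates 1 to 3 and 21.6, 79.4 and 76.3 in test replicates 1 to 3. H19 thus exceeded Igf2 in every tumor, by the least in control replicate 1 and by the most in control replicate 2. The 2 control tumors with the highest H19 were those with high Igf2, while control replicate 2 kept 126 FPKM of H19 beside 0.81 FPKM of Igf2.

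**Figure D2:**
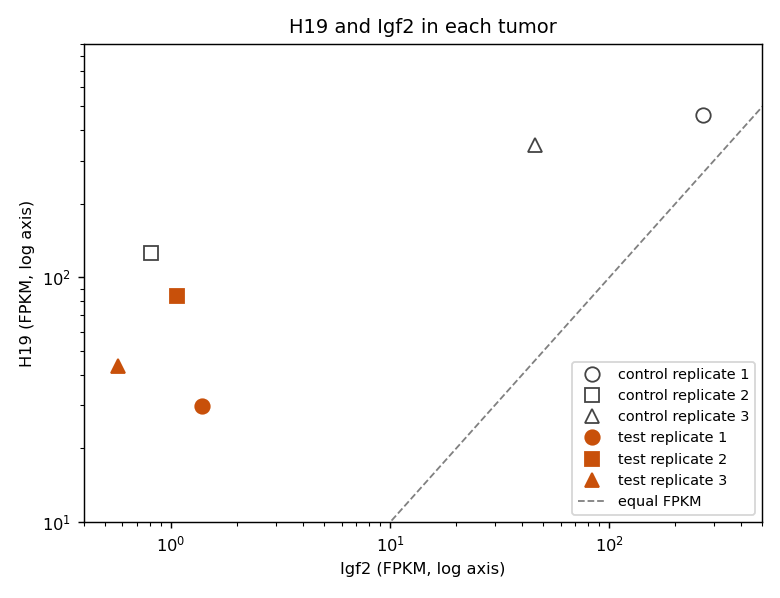
H19 against Igf2 in FPKM, both on log axes, with 1 symbol per tumor and a dashed line at equal FPKM. Control replicates 1 and 3 lie at the upper right, and control replicate 2 lies near the test tumors in Igf2 (0.81 FPKM) but above them in H19 (126 FPKM).

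By a rule on the shape and size of the pattern (the smallest root-mean-square difference of log2(CPM + 0.5), each gene centred on the mean of its 6 tumors), the 5 tested genes most like H19 were Col8a2, Zfp423, Ckb, Fth1 and A2m, at 0.308 to 0.393 log2 units. Fth1, the heavy chain of the iron store ferritin, was at 9365, 2112 and 8322 CPM in control replicates 1 to 3 and 1105, 2346 and 845 CPM in test replicates 1 to 3. Col8a2, a collagen chain, was at 131, 24.4 and 63.6 CPM and at 4.27, 22.0 and 5.94 CPM in the same order. Both have the order of the control tumors and the peak of the test group in replicate 2 seen in H19. They were picked for this likeness, so it is not a separate result. Unlike H19, Fth1 overlapped between the groups, with control replicate 2 below test replicate 2. Among the other tested members, Mest came closest to H19, at rank 74 of 13706 genes, then Cdkn1c at rank 727. Igf2 stood at rank 13194, since it spans a far wider range than H19.

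Mest (NCBI Gene 17294, chromosome 6, 30733506 to 30748466), also called Peg1, encodes a protein of the hydrolase fold and is abundant in embryonic mesoderm. Its level was 73.8, 10.4 and 73.6 CPM in control replicates 1 to 3 and 7.84, 14.5 and 14.2 CPM in test replicates 1 to 3. Control replicates 1 and 3 were nearly equal and stood above all test tumors, while control replicate 2 lay among them. Means were 52.6 ± 36.6 CPM in control and 12.2 ± 3.77 CPM in test tumors (SD, n = 3 each), 4.31-fold higher in control tumors. Mest's log2 fold change of -2.11 (standard error 0.69) had an adjusted p = 0.475 by edgeR, and by exact permutation p was 0.3. Without control replicate 2 it was -2.59 with an adjusted p = 0.0271 by edgeR, and Mest was then the only member called, where 1.28% of the genes tested were called. Without control replicate 3 the Mest value was -1.79 with an adjusted p = 0.987 by edgeR.

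The length behind the FPKM, which varies with the mix of transcripts that the authors' estimate assigned to a gene, also differed for Mest. It was 2530, 2504 and 2542 bases in control replicates 1 to 3 and 2401, 2421 and 2401 bases in test replicates 1 to 3. Every test tumor thus had the shorter estimate, including against control replicate 2, whose level was among those of the test tumors. Of 3040 genes whose length varied, 9.38% likewise did not overlap between the groups. Mest has 3 transcripts in the files, and this feature was singled out after its values were seen.

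Cdkn1c (NCBI Gene 12577, chromosome 7, 143458339 to 143461059) encodes p57, an inhibitor of cyclin-dependent kinases that stops cells from dividing. It lies in the same imprinted cluster region of chromosome 7, 880192 bases from H19, and answers to another control region. Its level was 25.2, 22.1 and 74.4 CPM in control replicates 1 to 3 and 14.4, 27.3 and 5.41 CPM in test replicates 1 to 3. Control replicate 3 alone was high and test replicate 3 alone was low, and the other 4 tumors lay between 14.4 and 27.3 CPM. Cdkn1c had a log2 fold change of -1.37 (with a standard error 0.67, adjusted p = 0.655, edgeR), and the exact permutation test gave p = 0.3. Without control replicate 3 the value was -0.60, and without test replicate 2 it was -2.03. Control replicate 3 was also the highest tumor in the sum of the myoepithelial markers, whose part in the Cdkn1c level was not tested.

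Grb10 (NCBI Gene 14783, chromosome 11, 11930499 to 12037428) encodes an adaptor protein that dampens insulin and IGF receptor signaling. Its level was 278, 9.63 and 169 CPM in control replicates 1 to 3 and 36.0, 20.1 and 74.3 CPM in test replicates 1 to 3. The lowest of the 6 tumors was control replicate 2, and the highest and the lowest control tumor differed 28.8-fold, against 3.69-fold among test tumors. Its fold change of -1.80 on the log2 scale came with a standard error of 1.00 (adjusted p = 0.686, edgeR, and exact permutation p = 0.5). The overlap of the groups rests on control replicate 2. Without that tumor the value was -2.36 (standard error 0.56, adjusted p = 0.113, edgeR), and without control replicate 1 it was -1.04.

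Peg3 (NCBI Gene 18616, chromosome 7, 6703892 to 6730462), which encodes a large zinc finger protein, varied least among the members lower in test tumors. Its level was 46.2, 25.5 and 33.1 CPM in control replicates 1 to 3 and 30.9, 18.6 and 18.9 CPM in test replicates 1 to 3. Test tumors were lower in 8 of the 9 pairings of a test with a control tumor, and only test replicate 1 exceeded a control tumor, replicate 2. For Peg3 the log2 fold change was -0.62 (standard error 0.34, adjusted p = 0.686, edgeR, and exact permutation p = 0.2).

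Plagl1 (NCBI Gene 22634, chromosome 10, 13090832 to 13131694) encodes a zinc finger transcription factor, also called Zac1, that is known to regulate other imprinted genes, H19 and Igf2 among them. Its level was 13.1, 6.38 and 8.42 CPM in control replicates 1 to 3 and 13.3, 16.2 and 9.23 CPM in test replicates 1 to 3. The groups overlapped because control replicate 1 exceeded test replicate 3. The log2 fold change was 0.47 (standard error 0.40, adjusted p = 0.784, edgeR, and exact permutation p = 0.2), and this small difference was in the direction opposite to that of H19.

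Meg3 (NCBI Gene 17263, chromosome 12, 109540996 to 109571729) is the other noncoding RNA among the members. Unlike H19 it was close to silent, with 12.5 to 73.2 counts per tumor. Its level was 1.39, 4.33 and 5.43 CPM in control replicates 1 to 3 and 5.07, 8.91 and 7.32 CPM in test replicates 1 to 3. Test tumors were higher in 8 of 9 pairings, the exception being test replicate 1 against control replicate 3. The log2 fold change was 0.93 (standard error 0.56, adjusted p = 0.700, edgeR, and exact permutation p = 0.2). In FPKM the levels were 0.47, 0.84 and 0.60 in control tumors and 1.04, 0.86 and 1.37 in test tumors, which do not overlap, as for 11.4% of the genes tested. The length behind those FPKM values ran from 2866 to 9745 bases over the 6 tumors, so the scale is less secure for Meg3 than for H19, whose length was constant. The gene span of Rtl1, which lies on chromosome 12 from 109564900 to 109604418, overlaps that of Meg3, and the use of strand in counting is not given in the sources used here, so reads of the shared stretch cannot be told apart.

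Dlk1 (NCBI Gene 13386, chromosome 12, 109452485 to 109463336), which encodes a membrane protein related to Notch ligands that keeps progenitor cells from maturing, lies 77659 bases from Meg3. It had 13, 6 and 17 counts in control replicates 1 to 3 and 3, 1 and 8 counts in test replicates 1 to 3. Test replicates 1 and 2 were thus at or under the floor of 3 counts taken as the smallest level that this depth can show, a floor that covers counting error only. In CPM the levels were 1.504, 0.649 and 1.81 in control tumors and 0.346, 0.122 and 0.849 in test tumors, and the groups overlapped in 1 of 9 pairings. The exact permutation test gave p = 0.2. Fitted without the filter on low counts, edgeR gave a log2 fold change of -1.55 with an adjusted p = 0.721.

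Peg10 (NCBI Gene 170676, chromosome 6, 4747306 to 4760517) derives from a retrotransposon and is needed for the placenta. Its level was 21.8, 1.51 and 1.49 CPM in control replicates 1 to 3 and 1.499, 24.0 and 5.84 CPM in test replicates 1 to 3. A single tumor in each group, control replicate 1 and test replicate 2, was high, and the highest and the lowest tumor differed 14.6-fold in the control group and 16.0-fold in the test group. The groups could not be separated at this spread, with a log2 fold change of 0.34 and a standard error of 1.24 (adjusted p = 0.955, edgeR). Without test replicate 2 it was -1.15 and without control replicate 1 it was 2.78. The paternally expressed gene Sgce, whose gene span lies 101 bases from that of Peg10, was at 25.3, 3.46 and 2.77 CPM in control replicates 1 to 3 and at 10.95, 28.9 and 22.4 CPM in test replicates 1 to 3. Both genes were high in control replicate 1 and test replicate 2 and low in control replicates 2 and 3, while in test replicates 1 and 3 Sgce was high relative to Peg10.

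Ndn (NCBI Gene 17984, chromosome 7, 62348277 to 62349928) encodes necdin, a growth suppressor of neurons. It had 2, 10 and 10 counts in control replicates 1 to 3 and 9, 46 and 10 counts in test replicates 1 to 3, or 0.231 to 1.08 CPM in control tumors and 1.04 to 5.61 CPM in test tumors. Test replicate 2 alone stood out, and the other tumors were near the limit of this depth. The exact permutation test gave p = 0.6, and edgeR without the filter on low counts gave 1.65 with an adjusted p = 0.708.

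**Figure D3:**
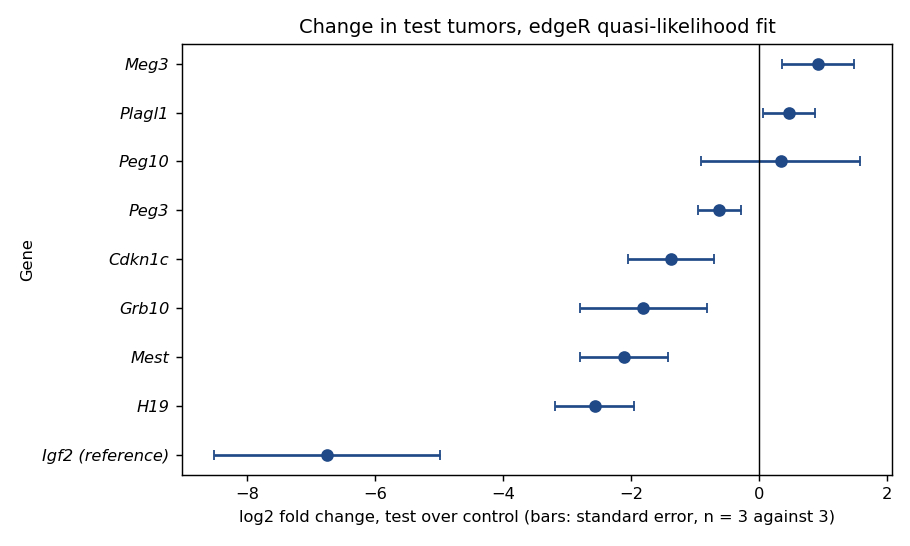
Log2 fold change of test over control tumors for the 8 tested members and Igf2, with bars of 1 standard error from edgeR's quasi-likelihood fit (3 against 3 tumors). The points run from -2.56 for H19 to 0.93 for Meg3 among the members, and the bar of Peg10 crosses 0.

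The tumors did not order the members in 1 common way. Control replicate 1 was the highest tumor for 4 members, test replicate 2 for 4 and control replicate 3 for 2. The members at their highest in test replicate 2 were Meg3, Plagl1, Peg10 and Ndn. Control replicate 2 was the highest tumor for none and the lowest for 2, Grb10 and Plagl1. With or without it, H19 did not overlap between the groups. Without it, the groups did not overlap for Mest, Grb10, Peg3 and Dlk1 either, all lower in test tumors. That made 5 of 10 members, where 35.1% of all genes tested did not overlap with that tumor left out. Dlk1 is among the 5 but, with its low counts, not among the 13706 genes of that share. For Mest, as for the reference Igf2, control replicate 2 lay among the test tumors, for Grb10 it lay below them, and for H19 it lay above them.

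**Figure D4:**
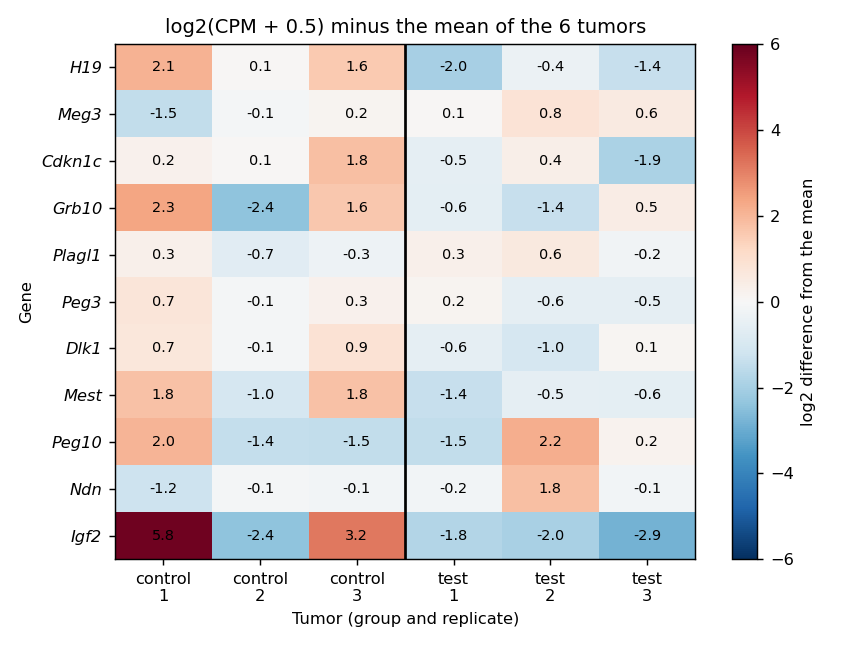
Log2(CPM + 0.5) of each member and Igf2 minus the mean of the 6 tumors, with control tumors left and test tumors right of the line, red for above and blue for below the mean. H19 runs from 2.1 in control replicate 1 to -2.0 in test replicate 1, and control replicate 2 lies near 0 for H19 but below it for Mest, Grb10 and Igf2.

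Compared per length, the order of the members was almost the same in both groups. In control tumors H19 stood at 312 ± 171 FPKM, followed by Grb10 at 29.7 ± 25.5, Cdkn1c at 21.5 ± 16.2 and Mest at 20.4 ± 14.04 FPKM (SD, n = 3 each). In test tumors H19 stood at 52.5 ± 28.3 FPKM, followed by Grb10 at 8.83 ± 5.64, Cdkn1c at 8.08 ± 5.39 and Mest at 4.98 ± 1.40 FPKM (SD, n = 3 each). Grb10, Cdkn1c and Mest did not differ from each other beyond their spread in either group. Peg3 followed at 5.16 ± 1.25 FPKM in control and 3.40 ± 1.19 FPKM in test tumors, then Plagl1 at 1.72 ± 0.531 and 2.39 ± 0.605 FPKM. Peg10, Ndn and Meg3 had group means between 0.493 and 1.51 FPKM and were not separated beyond their spread, and Dlk1 was last in both groups.

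The genes that lie beside the members in their imprinted clusters gave no common direction. Of 38 such neighbours, 22 were tested, 12 in the higher and 10 in the lower direction, and none was called by edgeR, with a median log2 fold change of 0.10. By unadjusted p under 0.05, 1 passed, Phlda2, a placental growth restrainer next to Cdkn1c, at 14.9, 4.22 and 7.35 CPM in control replicates 1 to 3 and 1.15, 4.03 and 2.23 CPM in test replicates 1 to 3. Its groups did not overlap, although control replicate 2 and test replicate 2 nearly met, and the log2 fold change was -1.83 (standard error 0.65, adjusted p = 0.505, edgeR). The groups did not overlap either for Snurf and Snrpn, both higher in test tumors at 0.81 and 0.39 on the log2 scale and from the same locus, so that their reads are uncertain between them, nor for Nap1l4, lower at -0.23. Snurf nearly met too, at 1.492 CPM (14 counts) in control replicate 3 and 1.499 CPM (13 counts) in test replicate 1. Snrpn did so at 23.5 CPM in control replicate 1 and 23.8 CPM in test replicate 1. These were 4 of 22 neighbours without overlap, against 12% of all genes tested.

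Among 26 imprinted genes of other clusters, 20 were tested, 6 were higher and 14 lower, none was called by edgeR, and the median log2 fold change was -0.24. Unadjusted p was under 0.05 for 2 of them. Nnat, a small membrane proteolipid of the developing brain, had 0, 8 and 2 counts in control replicates 1 to 3 and 15, 59 and 21 counts in test replicates 1 to 3, with a log2 fold change of 3.31 (its standard error 1.08, adjusted p = 0.475, edgeR). Smoc1, a secreted matrix protein, was at 369, 162 and 424 CPM in control and 97.0, 118 and 13.7 CPM in test replicates 1 to 3, with a log2 fold change of -2.06 (its standard error 0.74, adjusted p = 0.506, edgeR). Neither gene overlapped between the groups, and they lay in opposite directions. Groups did not overlap for 6 of the 20, 5 of them lower and 1 higher in test tumors. Over all genes tested the share was 12%, with 5.86% lower in every test tumor. The others named by the rule were Dlx5 at -1.41 (standard error 0.98, adjusted p = 0.732, edgeR) and Sfmbt2 at -0.69 (standard error 0.42, adjusted p = 0.700, edgeR). Both were lower in test tumors. Dlx5 had few counts, 16, 28 and 18 in control replicates 1 to 3 and 0, 13 and 9 in test replicates 1 to 3. Its groups nearly met, at 1.85 CPM in control replicate 1 and 1.59 CPM in test replicate 2.

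Of 16 genes for proteins that set or hold imprints, such as Ctcf, Trim28, Uhrf1 and the DNA methyltransferases, 13 were tested for their RNA. They split into 7 higher and 6 lower, with a median log2 fold change of 0.00, and none was called by edgeR, had an unadjusted p under 0.05 or had groups that did not overlap. Of 8 fetal RNA-binding and growth regulators, among them the Igf2bp, Lin28 and Hmga genes, 2 had enough counts to be tested, 1 higher and 1 lower. Among 7 relatives of the members by sequence, 5 were tested, 2 higher and 3 lower, none called by edgeR, with a median of -0.11.

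Within these relatives, 2 had an unadjusted p under 0.05, both lower in test tumors. Grb14, an adaptor of the Grb10 family, was at 48.0, 4.65 and 28.0 CPM in control replicates 1 to 3 and 4.38, 5.25 and 5.94 CPM in test replicates 1 to 3 (log2 fold change -2.37, standard error 0.74, adjusted p = 0.458, edgeR). Control replicate 2 lay among the test tumors. Cdkn1a, which encodes the kinase inhibitor p21 of the family of Cdkn1c, was at 586, 169 and 924 CPM in control replicates 1 to 3 and 274, 190 and 211 CPM in test replicates 1 to 3 (log2 fold change -1.32, standard error 0.56, adjusted p = 0.586, edgeR). For Cdkn1a control replicate 2 was the lowest of the 6 tumors, so the groups overlapped. These values are RNA. By Western blot the study reported the opposite direction for the protein, with more p21 in test than in control tumors. The reason for this difference was not tested.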

How the data were processed

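Breast tumors, 3 test and 3 control, were grouped by the group field of the labels, and 6 files were used, 1 per tumor. Per the study's methods and the submitters' processing notes, reads were aligned to mm10 with Bowtie, and RSEM and BWA are named too. The strand setting and annotation release are not given in the sources used here. The authors deposited for each gene an expected count without normalization, of which 79.01% to 80.06% were whole numbers. They also deposited an FPKM normalized to gene length and depth, and the length itself. A gene not listed in a tumor was set to 0. Genes are given by NCBI Gene identifier, and 18400 of 18460 were matched by it, 6 by transcript and 54 not at all. Positions and sequences are from RefSeq GRCm38.p6, the assembly of mm10.

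Expected counts were rounded and tested in R 4.3.3 with edgeR 4.0.16 (filterByExpr, TMM, quasi-likelihood test, Benjamini-Hochberg adjustment over 13706 genes, no covariates). The standard error is the log2 fold change divided by the square root of F. The common biological coefficient of variation was 0.434. Exact permutation tests were two-sided on the mean of log2(CPM + 0.5) over all splits of the 6 tumors. The alternatives were DESeq2 1.42.0, RLE scaling, no filter, at least 10 counts in every tumor, limma 3.58.1 on log2(FPKM + 1) and log2(FPKM + 0.1) where the mean FPKM reached 1, a block on the replicate number, and leaving out each tumor. The code was tested on simulated data.

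The text names all members and Igf2, up to 4 genes per list with the largest log2 fold change among those with an unadjusted p under 0.05 or groups that do not overlap, the 5 genes most like H19, and Tslp. Markers and the microRNA hosts are named beside them. Members and lists were chosen with earlier results of these data known. Per the study's legends, every tumor came from its own mouse. The study's other tumors, T cells and chromatin data were not analysed here.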

Additional observations from a re-analysis of the deposited data

How the results depend on the processing

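Every tested member except Peg10 kept its direction under each alternative that gave it a value, although these p-values rest on 3 tumors a group, and the order of the groups can hang on 1 tumor. Peg10 reversed to -0.15 without control replicate 2, -0.16 without control replicate 3 and -1.15 without test replicate 2, within a range of -1.15 to 2.78 over the 6 tumors left out in turn. DESeq2 called 343 genes and 1 member, with an unadjusted p under 0.05 for 4 members and 1582 genes. Limma on log2(FPKM + 1) called 1 gene, and on log2(FPKM + 0.1) an unadjusted p under 0.05 was met by 1 member and 914 genes. Leaving out a tumor called 0 to 182 genes and 0 to 1 members, in both cases the highest number without control replicate 2. Leaving out each tumor left 2 to 5 members whose groups do not overlap, but smaller groups overlap less readily for any gene. Without control replicate 2, 35.1% of all genes tested did not overlap, against 12% with all 6 tumors. That share is not given for the other tumors left out. On the FPKM scale 2 members did not overlap, H19 and Meg3, against 11.4% of all genes tested. Igf2 had an adjusted p = 0.00376 with DESeq2 and 0.0205 without control replicate 2 by edgeR, and Mest had 0.0509 with DESeq2. Without control replicate 1 the adjusted p of Igf2 by edgeR was 0.996. The causes of these changes were not tested. The labels number the tumors of each group 1 to 3, but deviations of same-numbered tumors correlated at -0.03, 0.12 and -0.14, so the numbers are not taken to pair them. With the replicate number as a block, edgeR called 0 genes (1056 at an unadjusted p under 0.05), H19 was at -2.56 with an adjusted p = 0.591, Mest at -1.79 and Peg10 at 1.18. Leaving out each tumor moved Meg3 between 0.53 and 1.30, Peg3 between -0.90 and -0.37 and Plagl1 between 0.26 and 0.80. Depth limits Dlk1 and Ndn, at 1 to 46 counts per tumor.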

Other observations

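Summed adipocyte markers were at 24.7, 12.9 and 20.0 CPM in control replicates 1 to 3 and 249, 68.7 and 15.0 CPM in test replicates 1 to 3. T cell markers summed to 2.69 to 4.90 CPM over the 6 tumors. Rag1 had 4 to 27 counts in control tumors and 6 to 12 counts in test tumors, and the reads cannot check its deletion because their position in the gene is not given.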
